A study of Mus musculus with 44 samples.

Results

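Genes for the subunits of oxidative phosphorylation are described here in marrow cells enriched for blood stem cells, from 22 BXD strains of mice. The members were all probe sets, the groups of short probes that report a transcript on the Affymetrix MG_U74Av2 array, with 1 gene symbol beginning with Nduf, Sdh, Uqcr, Cox4, Cox5, Cox6, Cox7, Cox8 or Atp5, or with the symbol Cycs or Cyc1. Of 12422 probe sets on the array other than controls, 103 met this rule, and 81 of them, for 65 genes, had a mean log2 intensity of at least 6 and were kept. By the same level, 7452 probe sets of the array were tested. The members lay on 19 chromosomes. Just outside the level were Ndufaf1 (161507_f_at, 5.90), Sdha (5.70), Ndufa12 (5.58) and Cox5a (160438_at, 5.48), and just inside it were Ndufb6 (161660_r_at, 6.12), Sdhaf2 (6.15), Cox6c (100551_r_at, 6.20) and Atp5j2 (6.20). Another 10 probe sets that carried several symbols were left out. The study looked for genes and chromosomal regions that act on the function of these cells.

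BXD strains are recombinant inbred lines that descend from a cross of C57BL/6 with DBA/2, so that each is homozygous for its own mix of the parental genomes. No parental strain is among the arrays. All mice were female and between 3 and 6 months old, and the marrow of 3 mice was pooled for each sample. The cells were sorted by flow cytometry as Lin-Sca-1+c-kit+, that is, without markers of mature blood lineages and with the surface proteins Sca-1 and c-kit. Each strain had 2 arrays, numbered here as replicates 1 and 2 in the order of the array labels. Array series A held the strains BXD6, BXD8, BXD11, BXD12, BXD31, BXD33, BXD38, BXD40, BXD42 and BXD32, and array series B held BXD18, BXD21, BXD19, BXD9, BXD39, BXD2, BXD16, BXD1, BXD34, BXD5, BXD14 and BXD28. No strain had arrays in both. The labels do not say whether the 2 arrays of a strain came from separate pools. P-values of the tests on strains therefore cover the spread between arrays only, and that spread may be technical. Those of the comparison between the array series cover the spread between strain means.

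Oxidative phosphorylation takes place in the inner membrane of mitochondria. Complex I (NADH dehydrogenase) and complex II (succinate dehydrogenase) pass electrons to ubiquinone, complex III (the cytochrome bc1 complex) passes them on to cytochrome c, and complex IV (cytochrome c oxidase) passes them to oxygen. Complexes I, III and IV pump protons as they do so, and complex V (ATP synthase) lets the protons back in and makes ATP. Most subunits are encoded in the nucleus and some in mitochondrial DNA, and the nuclear ones are the subject here. Quiescent blood stem cells are known for leaning on glycolysis more than their dividing descendants do. The tested members were 29 probe sets of 25 genes for complex I, 3 of 3 genes for complex II, 8 of 7 genes for complex III, 16 of 12 genes for complex IV, 20 of 13 genes for complex V, 1 for cytochrome c itself, and 4 for the assembly factors Ndufaf1, Ndufaf4, Sdhaf1 and Sdhaf2, which help to build complexes I and II without being subunits of the finished enzymes.

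Levels are quantile-normalized log2 intensities, and those of different probe sets are not on a common scale. Kit, the gene of c-kit, had a median log2 intensity of 9.51 over the 44 arrays, with no array at the floor of 4 to which low values were set. Of the lineage genes, Cd3d of T cells (92683_at) had a median of 4 and Cd3e of T cells 5.31, and Itgam of myeloid cells had 4.34 and Ly6g of neutrophils 5.72. Cd3e and Ly6g were above the floor on all 44 arrays. The neutrophil genes Camp and S100a8 were bright, with strain means between 10.25 and 12.45 and between 10.40 and 11.97. The 2 arrays labelled BXD40 and the 2 labelled BXD42 did not match within their strain. H2-Ea, a gene that is silent on the C57BL/6 haplotype, read 4 and 7.57 in BXD40 and 8.69 and 4.41 in BXD42. Results that rest on these arrays are given with that reservation. With 2 arrays a strain, precision is limited, and fewer cells of a type cannot be told apart from less RNA per cell.

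The first comparison asked whether any member differed between strains by more than the 2 arrays of a strain differed from each other. No member passed the test. By the limma F test over strains within each array series, 0 of 81 members had an adjusted p below 0.05, while 209 of all 7452 tested probe sets did (2.80%). Without adjustment, 7 members (8.64%) had p below 0.05, against 12% of all tested probe sets. An ordinary F test called 0 members and 2.51% of all probe sets. The smallest adjusted p among members was 0.130, for Atp5mpl.

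The spread of the members lay near that of all tested probe sets. Their median SD between strain means was 0.248 on the log2 scale, and the median over all tested probe sets was 0.265. Their median SD between the arrays of a strain was 0.300, with 0.359 over all. The share of variance between strains (intraclass correlation) had a median of 0.0910 in members and 0.0386 over all. In 12 members (14.8%) the spread between strains exceeded that within strains, against 13.2% of all tested probe sets. The highest strain mean was a median of 1.71-fold above the lowest in series A and 1.73-fold in series B, with 1.77-fold and 1.81-fold over all tested probe sets. These values describe the members and were not tested against the others.

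**Figure D1:**
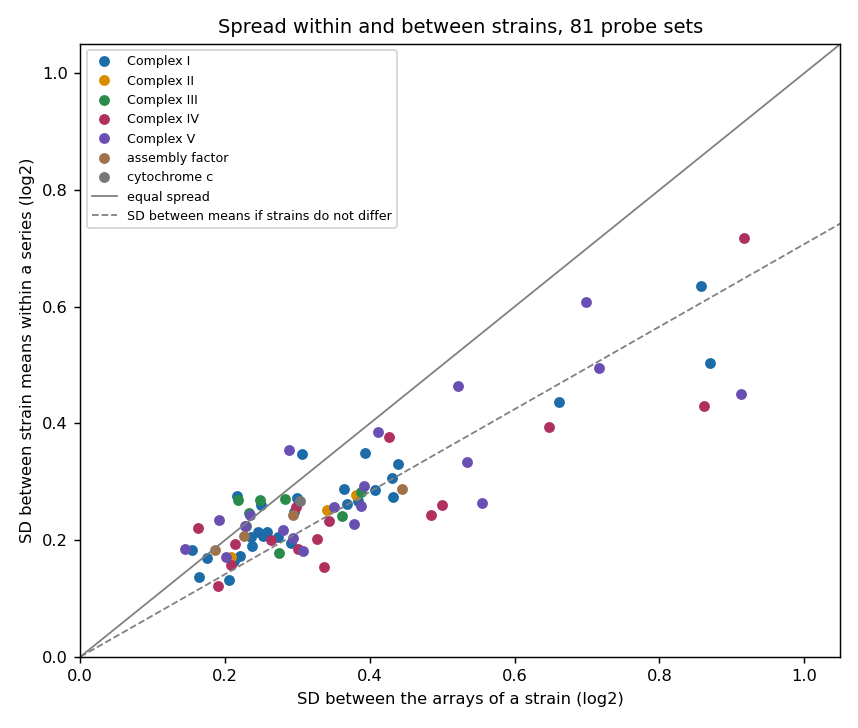
Each point is 1 of the 81 probe sets, with the SD between the 2 arrays of a strain on the x axis and the SD between strain means within a series on the y axis, both in log2 units, coloured by complex. Most points lie below the solid line of equal spread, and 12 lie above it; the dashed line marks the spread of strain means that array error alone would give.

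Among complex I genes, Ndufv2, which encodes an iron-sulfur subunit of the NADH-oxidising arm, had the smallest adjusted p (0.181, 162327_f_at). It read 8.48 and 8.12 on the BXD42 arrays and 7.62 and 6.95 on the BXD38 arrays, the highest and lowest strains of series A, a 2.02-fold range. In series B it read 8.11 and 8.20 in BXD18 and 6.80 and 7.38 in BXD2, a 2.10-fold range. The arrays of these pairs of strains did not overlap, but the probe set did not pass the test over strains. The other Ndufv2 probe set, 94062_at, correlated with it at r = 0.229 over the 22 strain means. Ndufa3 (96915_f_at), an accessory subunit, read 9.89 and 9.67 in BXD8 and 8.60 and 8.93 in BXD31 (adjusted p = 0.222). Ndufa2, another accessory subunit, read 9.75 and 10.16 in BXD42 and 9.01 and 9.08 in BXD11 (adjusted p = 0.445). Its range in series A was 1.88-fold. Of the 29 probe sets of complex I, 2 had an unadjusted p below 0.05.

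Complex II, which also belongs to the tricarboxylic acid cycle, was represented by Sdhb, the iron-sulfur subunit, and by the membrane anchors Sdhc and Sdhd. The flavin subunit gene Sdha lay under the level. None of the 3 had an adjusted p under 0.838. Sdhb read 9.02 and 9.51 in BXD6 and 8.77 and 8.06 in BXD11 within series A, and 8.28 and 8.92 in BXD19 and 7.77 and 7.50 in BXD14 within series B. Sdhc ranged 1.86-fold in series A, with BXD8 highest and BXD38 lowest, and Sdhd 1.47-fold, with BXD40 highest and BXD11 lowest. The SD between arrays of a strain was 0.381 for Sdhb and 0.341 for Sdhc, and the SD between strain means, each over 2 arrays, was 0.278 and 0.251. Their intraclass correlations were 0.0310 and 0.0392, so the strain means were spread about as array error alone would give.

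Complex III had the highest median intraclass correlation of the 5 complexes, 0.301 over its 8 probe sets. Uqcrc2, a core subunit, had 10.95 and 10.69 in BXD6 and 10.18 and 9.40 in BXD33, a 2.04-fold range (adjusted p = 0.224). Uqcrq, a small subunit, had 9.32 and 9.40 in BXD42 and 8.58 and 8.60 in BXD33, and in series B 9.68 and 9.00 in BXD18 and 8.24 and 8.43 in BXD9 (adjusted p = 0.375). Both genes had BXD33 lowest in series A and BXD18 highest in series B, as did Uqcr10, another small subunit. Cyc1, the cytochrome c1 that hands electrons to cytochrome c, had adjusted p = 0.456 by 95072_at and 0.904 by 162469_r_at. Cycs, cytochrome c itself, had 8.81 and 9.15 in BXD5 and 8.04 and 7.99 in BXD34, a 1.94-fold range in series B, with adjusted p = 0.639.

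Complex IV had the lowest median intraclass correlation, -0.0746, so its strains differed no more than arrays of a strain for a typical member. The exception in size was Cox6c (100550_f_at), a small subunit, with an intraclass correlation of 0.577. It read 11.95 and 12.17 in BXD42 and 11.40 and 10.82 in BXD11, a 1.93-fold range in series A, and 11.76 and 11.68 in BXD18 and 10.96 and 11.10 in BXD1 in series B. Its adjusted p was 0.244, and 0.0638 by the ordinary F test, the smallest of any member by that test. The other Cox6c probe sets, 162319_i_at and 100551_r_at, had r = -0.113 and 0.0354 with it. Cox7b, an X-linked small subunit, read 10.21 and 10.29 in BXD42 and 9.40 and 7.99 in BXD11 (adjusted p = 0.571). The 2 arrays of BXD11 thus lay further apart than BXD42 lay from the nearer of them.

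Several complex IV subunits have isoforms for different tissues. Cox6a1 is the widespread isoform and Cox6a2 that of heart and skeletal muscle. Cox6a1 lay between 10.02 and 11.13 over the arrays, and the probe set for Cox6a2 gave 7.50 to 8.83. The probe set for Cox8b, known from muscle and brown fat, gave 5.73 to 8.17 with an SD within strains of 0.50. Cox6b2, known from testis, gave 6.28 to 8.80 by 160813_r_at and 6.41 to 7.73 by 97352_f_at, and the widespread Cox6b1 gave 5.56 to 9.28. Cox4i1 had adjusted p of 0.868 and 0.976 by its probe sets. Cox7a2 and Cox7a2l, set together here by symbol only, had 0.947 and 0.909. None of these genes passed the strain test, and whether the probe sets of the muscle and testis isoforms report those transcripts in these cells was not tested.

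In complex V the smallest adjusted p was that of Atp5mpl, a small membrane subunit, at 0.130. It read 9.21 and 9.29 in BXD12 and 8.10 and 8.15 in BXD33, a 2.19-fold range in series A, and 9.53 and 9.58 in BXD1 and 8.31 and 8.80 in BXD39, a 2.01-fold range in series B. Without the strains BXD40 and BXD42 its adjusted p was 0.0195, and 272 probe sets of all those tested were then called. Atp5g2 (102134_f_at), which encodes a c subunit of the proton-driven rotor, read 9.79 and 9.87 in BXD42 and 9.25 and 9.18 in BXD32, and 9.49 and 9.67 in BXD19 and 8.93 and 9.04 in BXD5 (adjusted p = 0.308). Atp5g1 encodes the same mature protein, and its probe sets had adjusted p of 0.835 and 0.901. Atp5j, which encodes coupling factor 6 of the stalk, read 9.97 and 9.90 in BXD42 and 9.48 and 9.33 in BXD32 (adjusted p = 0.454). Of the 4 assembly factors, none had an adjusted p under 0.687.

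Several genes had more than 1 tested probe set. Over 12 such genes and 21 pairs of probe sets, the correlation over the 22 strain means had a median of -0.00713, was positive in 10 pairs and over 0.5 in 4. It reached 0.742 for Atp5c1, the gamma subunit of the rotor, and 0.690 for Atp5g1. It was 0.410 for Atp5g2, 0.281 for Ndufa3, -0.0894 for Atp5l, -0.171 for Cox4i1, -0.189 for Cyc1 and -0.00802 for Cox6b2. For Ndufb2 it was -0.388 between 162473_r_at and 95132_r_at. Values are therefore given by probe set.

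The second comparison set each strain against the others in its series. Of 1782 tests on members, 3 passed (0.168%), against 0.440% over all tested probe sets. Uqcrc2 was higher in BXD6, at 10.95 and 10.69, against 9.40, 10.02 and 10.84 as the lowest, median and highest of the other 18 arrays of series A, 1 of which lay above the lower BXD6 array. The difference was 0.73 ± 0.18 (SE, log2), with a limma adjusted p of 0.0330, and 0.617% of all probe sets were called higher in BXD6. BXD6 averaged 10.82, and the highest of the other strains of series A was close to it, at 10.71. The call ended without replicate 1 (adjusted p = 0.308) or replicate 2 (0.0877) of BXD6.

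Cyc1 (95072_at) was lower in BXD11, at 10.93 and 10.26, against 11.09, 11.44 and 11.73 as the lowest, median and highest of the other 18 arrays of series A. The groups did not overlap. The difference was -0.82 ± 0.19 (SE), with limma adjusted p = 0.0303, where 0.403% of all probe sets were called lower in BXD11. It was no longer called on the values as deposited (adjusted p = 0.0832) or without replicate 2 of BXD11 (0.999), and the other Cyc1 probe set, 162469_r_at, was at its series A highest in BXD11, with 10.68 and 11.13. Atp5d (162343_f_at), the delta subunit of ATP synthase, was lower in BXD21, at 5.45 and 7.61, against 7.20, 8.34 and 9.18 in the other 22 arrays of series B, 2 of which lay below the higher BXD21 array. Its difference of -1.77 ± 0.37 (SE; limma adjusted p = 0.0175, background 0.268% lower in BXD21) rested on the first array, since without it the difference was -0.69 (adjusted p = 0.9998). 2 further Atp5d probe sets, 161145_f_at and 161494_f_at, also had their lowest series B mean in BXD21, at 6.39 and 8.03, and 94279_at did not.

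**Figure D2:**
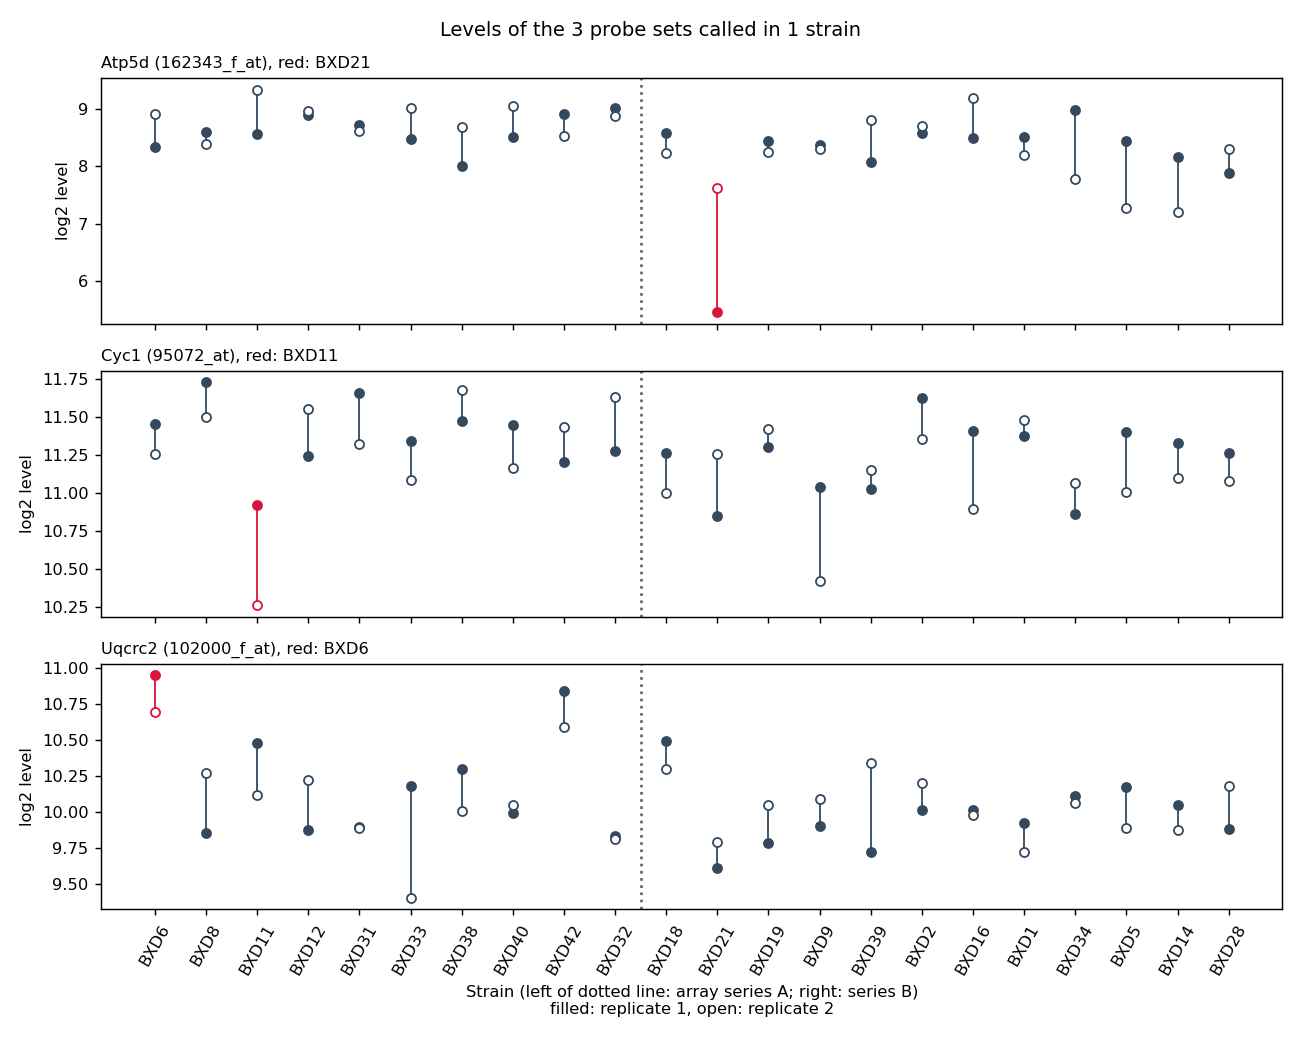
Log2 level (y axis) of the 3 probe sets called in 1 strain, by strain (x axis), with replicate 1 filled, replicate 2 open and the called strain in red. The dotted line parts array series A from series B; the Atp5d call rests on 1 array at 5.45, and the BXD11 arrays of Cyc1 lie below all other series A arrays.

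The third comparison set the complexes side by side across strains. For each array, the deviation of a complex was the mean over its probe sets of the log2 level minus the mean of that probe set over the strains of the series. BXD42 had the highest deviation over the 81 members, 0.197 on each of its arrays. In BXD42, 60 of 81 members lay above their series mean, against 49.6% of all tested probe sets, and 43 were above it on both arrays (24.3% of all). BXD18 came next with a mean deviation of 0.190, but its arrays read 0.352 and 0.0289. In BXD18, 65 of 81 members lay above the series mean, against 50% of all. BXD11 was lowest at -0.160, with -0.0593 and -0.260 on its arrays, 25 members above the series mean where 51.3% of all probe sets were, and 37 below it on both arrays (24.3% of all).

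The other strains lay closer to their series. BXD19 had deviations of 0.120 and 0.110 and BXD16 of 0.120 and 0.0740, and BXD5 had -0.0873 and -0.108. BXD34 had 0.239 and -0.177, the widest gap between the arrays of a strain. The SD over the 22 strain means was 0.0936, and the pooled SD between arrays of a strain was 0.0934. The strain means, each over the arrays of a strain, were therefore spread about as widely as single arrays of 1 strain. Array error alone would spread such means less widely than single arrays. The likeness of these SDs thus does not show that strains differed by array error only. No test was run on these deviations.

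The order of strains was much alike for complexes I, III and V. In BXD42 the deviation was 0.189 for complex I, 0.261 for complex III and 0.289 for complex V, where 17 of 20 probe sets lay above the series mean, and it was 0.142 for complex IV and 0.117 for complex II. In BXD11 it was -0.144 for complex I, -0.297 for complex II, -0.109 for complex III, -0.0945 for complex IV and -0.246 for complex V. BXD18 had 0.170, 0.232, 0.267, 0.195 and 0.201 for complexes I to V. Some strains departed from this order. BXD33 had the lowest complex III, at -0.265 with 0 of 8 probe sets above the series mean, and 0.128 for complex II. BXD1 had the lowest complex IV, at -0.225 on arrays of -0.243 and -0.207, and 0.127 for complex II. BXD9 had -0.258 for complex II, from arrays of 0.0956 and -0.611. Over the 3 probe sets of complex II, such gaps between arrays were wider than in the larger complexes.

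**Figure D3:**
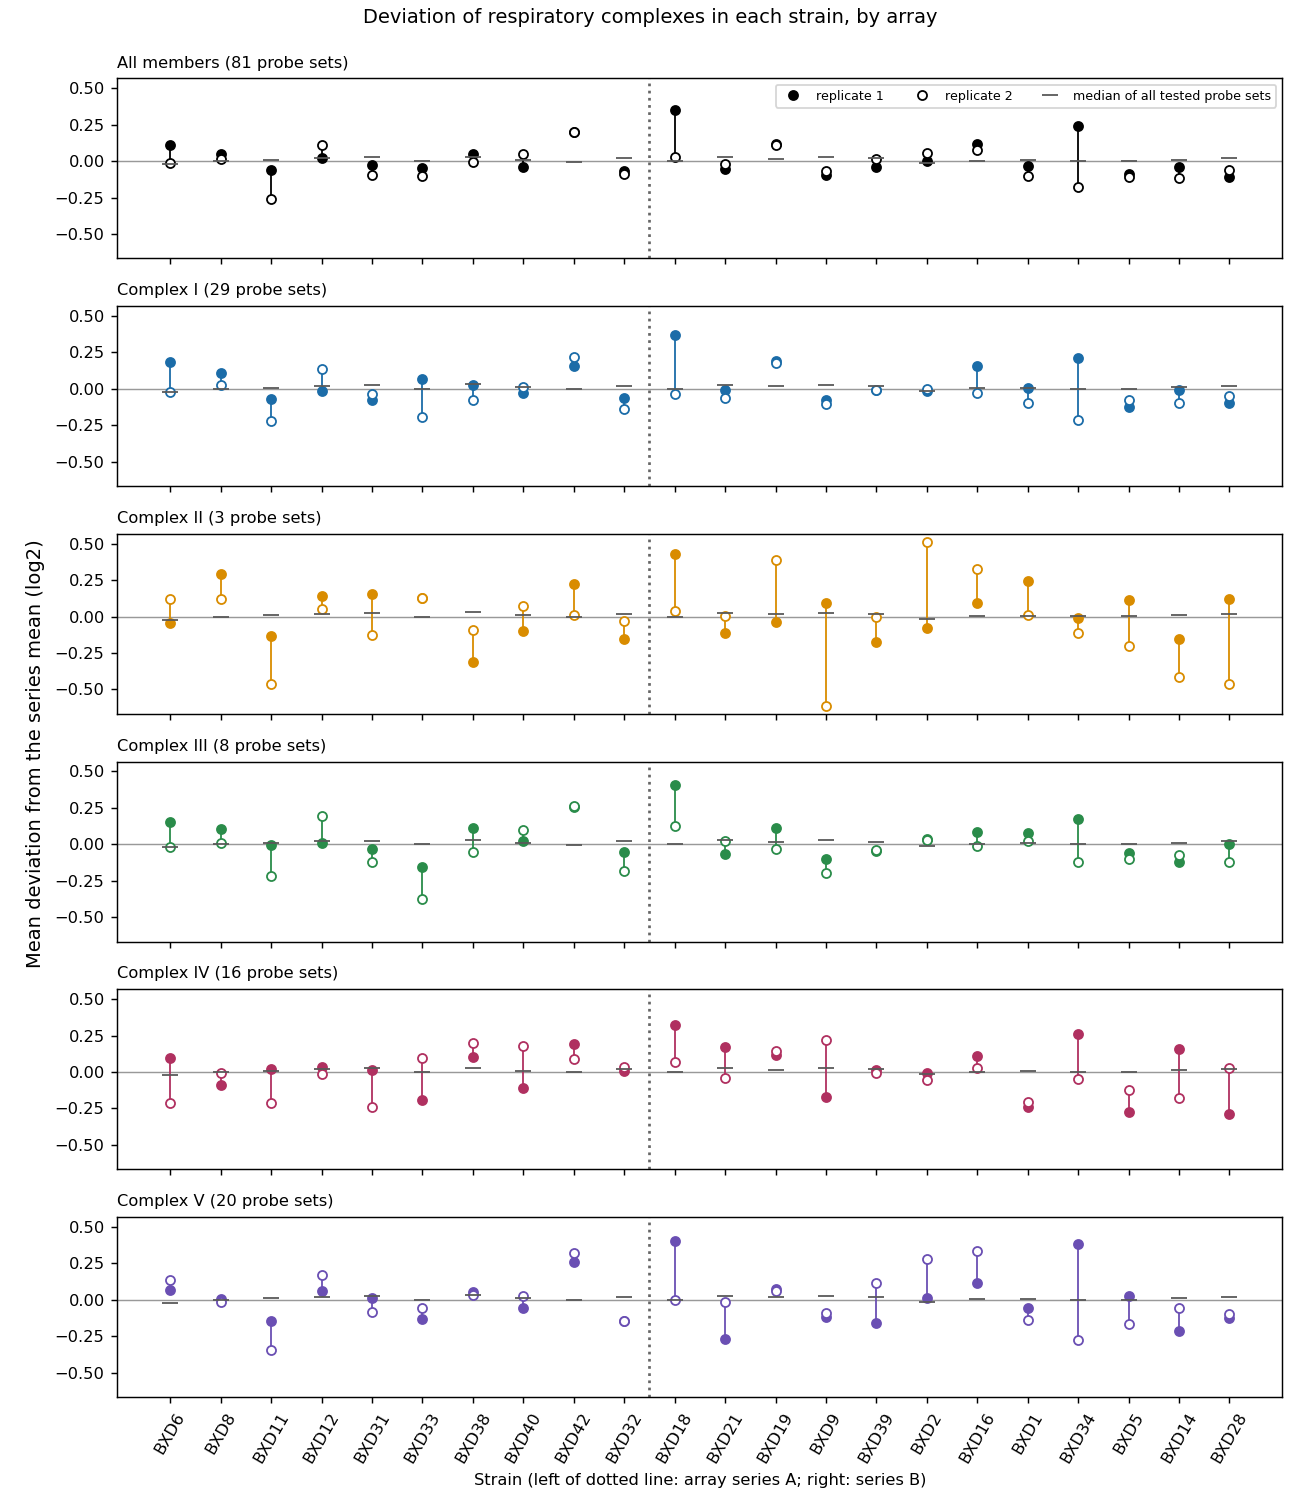
Mean deviation from the series mean (y axis, log2) of all members and of each complex, by strain (x axis), with replicate 1 filled, replicate 2 open, and short bars for the median of all tested probe sets. BXD42 lies above 0 on both arrays in the 6 panels, BXD11 lies lowest for all members, and the arrays of BXD34 lie on opposite sides of 0 in complex V.

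Counts of single members describe the same strains in another form. As the deviations are means over these same members, the counts give no separate support. BXD42 had the highest series A mean in 32 of 81 members (39.5%, against 11.5% of all tested probe sets), BXD11 the lowest in 24 (29.6%, against 12.1%), and BXD18 the highest in series B in 20 (24.7%, against 6.83%). With no adjustment, 15 members were higher in BXD42 and 0 lower with p below 0.05, where 4.62% and 5.50% of all probe sets were. In BXD18 these counts were 14 higher and 1 lower (2.59% and 3.05% of all), and in BXD11 0 higher and 11 lower (3.18% and 5.56% of all). No member passed with adjustment in BXD42 or BXD18. The array labels of BXD42 are in doubt, as given above, and both of its arrays read 0.197. Marker lists of other cell types deviated in these strains too. The mean over the megakaryocyte markers was 0.329 in BXD42, -0.0938 in BXD18 and 0.460 in BXD11, and that over the erythroid markers was 0.194 in BXD42, 0.229 in BXD18 and 0.294 in BXD11. Both lists were thus above the series mean in BXD11, where the members were lowest. The list for mast cells, basophils and eosinophils was at 0.130 in BXD42, -0.103 in BXD18 and 0.0156 in BXD11. The remaining 4 marker lists lay between -0.116 and 0.0309 in these 3 strains.

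The ratio of the 3' to the 5' control probe set of Gapdh, a measure of RNA integrity and labelling, moved to some extent with the deviation of the members. Over the 44 arrays the log2 ratio correlated with it at r = 0.403, and over the 22 strain means at r = 0.336, both centred on the series. Over the 22 differences of replicate 1 minus replicate 2, r was 0.385. In BXD18 the ratio was 4.20 and 2.97 on the arrays with deviations of 0.352 and 0.0289, and in BXD34 it was 4.14 and 3.34 on those with 0.239 and -0.177. In BXD42 it was 3.95 and 3.46, and in BXD11 3.91 and 3.39. Other strains with a wide gap in the ratio went both ways. In BXD16 the ratio was 3.83 and 2.84 on arrays with deviations of 0.120 and 0.0740. In BXD8 (ratios of 3.97 and 3.05) and in BXD1 the deviation was likewise higher on the array with the higher ratio. The reverse held in BXD9, with 3.81 and 2.65 on arrays with deviations of -0.0959 and -0.0642. It also held in BXD28, with 3.54 and 2.79 on arrays with -0.107 and -0.0599. BXD40, whose labels are in doubt, had 3.79 and 3.07 on arrays with -0.0426 and 0.0517. The ratio was higher on replicate 1 in all strains but BXD21 and BXD2, so the replicate number went with this technical measure. The part of this ratio in the deviations was not tested.

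Over the 22 strain means, complex I correlated with complex V at r = 0.841, with complex III at 0.814, with complex II at 0.684 and with complex IV at 0.606. Complexes III and V correlated at 0.782, II and V at 0.678, IV and V at 0.551, and II and IV at 0.142. Cytochrome c had r = 0.226 with complex I and -0.301 with complex IV, and the assembly factors had r = -0.157 with complex I and -0.198 with complex V. Without BXD40 and BXD42 the value for complexes I and V was 0.798, and without the strains farthest from the median of complex I, BXD42 and BXD19, it was 0.849. The complexes share no probe set but share arrays, and part of the likeness is seen between arrays of 1 strain: over the 22 differences of replicate 1 minus replicate 2, r was 0.581 for complexes I and V, 0.777 for I and III, 0.670 for III and V, 0.371 for I and IV and 0.0329 for I and II. These correlations are descriptions of 22 strains.

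Single members had a far lower median r with each other than most pairs of complexes had. These are unlike measures, since a complex is a mean over several probe sets, which evens out the noise of single ones. Over 3219 pairs of members from different genes, the median r over strain means was 0.107, with 63.1% of pairs positive and 9.41% over 0.5, and over all pairs of tested probe sets the median was 0 with 2.92% over 0.5. Pairs within a complex had a median of 0.111 and pairs from different complexes 0.106. Over the differences between arrays of a strain, the median for members was 0.0554.

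**Figure D4:**
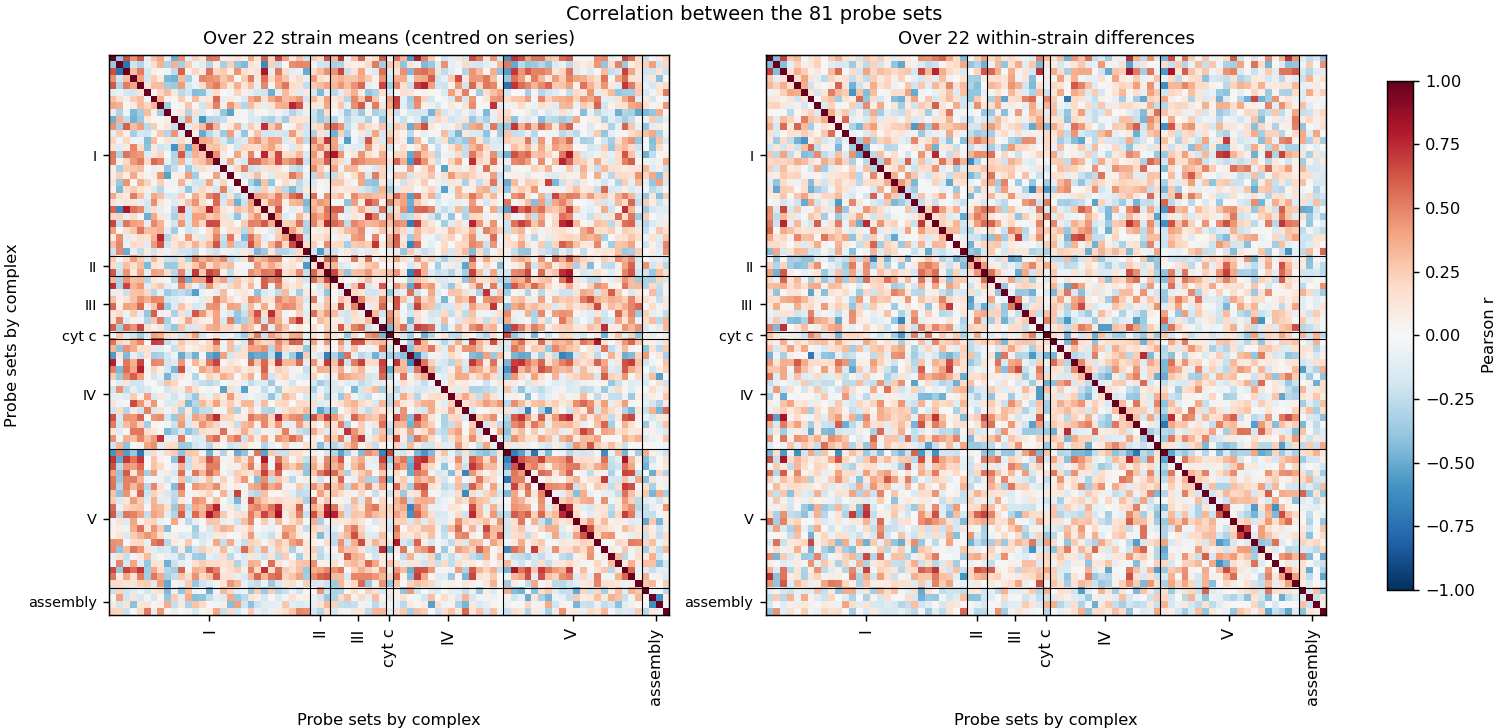
Pearson r between each pair of the 81 probe sets, ordered by complex along both axes, over strain means (left) and over differences between the arrays of a strain (right), from -1 in blue to 1 in red. Red cells are spread over blocks within and between complexes rather than gathered along the diagonal, and the median r over pairs is 0.107 on the left and 0.0554 on the right.

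Members that followed the rest most closely over strain means were small subunits. Cox7a2, a small subunit of complex IV, had r = 0.854 with the mean of all other members, Cox7b 0.831, Ndufb2 (95131_f_at) 0.801, and Ndufab1, the mitochondrial acyl carrier protein, 0.780. Within their own complex, the highest r with the other probe sets was 0.816 for Ndufab1, 0.526 for Sdhb, 0.599 for Uqcr10, 0.604 for Cox6c (100550_f_at) and 0.793 for Atp5j. The lowest was -0.376 for Ndufc2, 0.251 for Sdhc, 0.0365 for Cyc1 (162469_r_at), -0.257 for Cox8b and -0.495 for Atp5a1. Atp5a1 encodes the alpha subunit of the ATP synthase head, with r = -0.402 to all other members. It read 12.09 and 12.07 in BXD14 and 11.24 and 11.65 in BXD34. Cox8c, known from testis, had the lowest r of all with the other members, -0.537.

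The 150 bases before the start of the gene are shown for the 4 members that followed the rest most closely, and for Atp5g2 (102134_f_at, r = 0.715), Sdhb (0.614) and Cycs (0.0192), whose promoters hold the core letters CGCATGC of the motif of NRF-1, a transcription factor known to regulate cytochrome c and other respiratory genes. They let promoters of members with high and low r be read side by side. The sequences are RefSeq's, GRCm38.p6, written 5′ to 3′ on the strand of the gene, and capitals mark the motifs listed after them.
Cox7a2, chr9:79759854-79760003, minus strand: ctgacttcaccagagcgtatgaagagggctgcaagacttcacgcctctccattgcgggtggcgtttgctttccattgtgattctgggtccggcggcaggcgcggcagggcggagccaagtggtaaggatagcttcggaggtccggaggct
Cox7b, chrX:106015550-106015699, plus strand: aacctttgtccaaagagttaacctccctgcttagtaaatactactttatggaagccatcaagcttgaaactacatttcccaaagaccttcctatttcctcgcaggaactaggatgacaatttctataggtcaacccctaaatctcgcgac
Ndufb2, chr6:39592415-39592564, plus strand: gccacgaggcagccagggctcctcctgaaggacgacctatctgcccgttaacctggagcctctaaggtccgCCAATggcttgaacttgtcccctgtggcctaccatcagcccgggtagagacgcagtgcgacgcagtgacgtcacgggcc
Ndufab1, chr7:122101849-122101998, minus strand: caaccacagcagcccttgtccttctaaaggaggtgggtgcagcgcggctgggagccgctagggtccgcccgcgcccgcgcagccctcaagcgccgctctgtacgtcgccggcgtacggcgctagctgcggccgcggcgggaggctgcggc
Atp5g2, chr15:102671048-102671197, minus strand: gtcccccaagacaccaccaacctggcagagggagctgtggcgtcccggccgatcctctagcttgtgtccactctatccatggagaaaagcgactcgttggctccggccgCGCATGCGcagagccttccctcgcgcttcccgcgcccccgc
Cycs, chr6:50566570-50566719, minus strand: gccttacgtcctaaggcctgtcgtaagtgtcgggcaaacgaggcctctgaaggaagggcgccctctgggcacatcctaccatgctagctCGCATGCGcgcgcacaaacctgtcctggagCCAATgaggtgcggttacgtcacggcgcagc
Sdhb, chr4:140961121-140961270, plus strand: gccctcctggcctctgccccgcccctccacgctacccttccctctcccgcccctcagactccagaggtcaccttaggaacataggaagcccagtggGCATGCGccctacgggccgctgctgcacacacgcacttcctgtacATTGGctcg

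The motifs were searched on both strands in the 250 bases before the start, in the 51 of 65 member genes that the promoter table holds and in all its 27025 genes. The NRF-1 core CGCATGC, whose matches on the 2 strands can overlap, was found in 10 member genes (19.6%) and in 3.43% of all genes. The member genes were Atp5g2, Atp5j, Atp5k, Atp5l, Cox6a1, Cycs, Ndufa6, Ndufa8, Ndufaf4 and Sdhb, from complexes I, II, IV and V, cytochrome c and an assembly factor. The letters CCGGAAG, bound by ETS factors such as GABP, were found in 11 member genes (21.6%) and in 7.83% of all. The letters CCAAT were found in 21 (41.2%), against 37.5% of all, and TATAAA in 5 (9.80%), against 14.3%. None of the 4 members with the highest r held the NRF-1 core. Of the genes that held it, Atp5j had r = 0.741 with the other members and Ndufa6 0.709, while Ndufaf4 had 0.142 and Cycs 0.0192. A match describes these letters in this window and was not tied to the levels by any test.

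The last comparison was between the array series, on 10 and 12 strain means, since levels from both are set side by side above. Series A and B hold different strains, so array series and strain set cannot be told apart. Of the 81 members, 18 (17 genes) were higher in series A with an adjusted p below 0.05 (22.2%, against 11.1% of all tested probe sets) and 1 was lower (1.23%, against 10.8%). The median difference of series A minus series B was 0.14 over the members and 0.01 over all tested probe sets. Marker lists of cell types went in both directions between the series, beside the same shares of 11.1% higher and 10.8% lower. The median was 0.35 over 4 probe sets for megakaryocytes, 3 of which were called higher in series A. It was 0.20 over 7 for erythroid cells, with 0 higher and 1 lower, and 0.19 over 16 for neutrophils and monocytes, with 2 higher and 1 lower. It was 0.09 over 17 for B cells, with 2 higher and 1 lower, and -0.08 over 11 for stem and progenitor markers, with 0 higher and 2 lower. For mast cells, basophils and eosinophils it was 0.08 over 5, and for T and NK cells -0.07 over 8, with 0 called in either list. The part of cell makeup in the difference between series was not tested. By complex, 6 probe sets of complex I, 3 of 3 of complex II, 0 of complex III, 6 of complex IV and 3 of complex V were higher in series A. Without BXD40 and BXD42, 12 members were higher in series A (14.8%, against 9.70% of all tested probe sets) and 2 were lower (2.47%, against 8.91%).

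Sdhb averaged 8.88 ± 0.27 over the 10 strains of series A and 8.23 ± 0.29 over the 12 of series B (SD). All 10 strains of series A lay above the median of series B, and 4 strains of series B lay above the lowest of series A. The difference was 0.65 ± 0.12 (SE), with a limma adjusted p of 0.000438. Sdhc and Sdhd were higher in series A by 0.33 and 0.25. Cox6c (100551_r_at) averaged 6.68 ± 0.42 over the strains of series A and 5.81 ± 0.44 over those of series B (SD), the widest difference of any member at 0.87 ± 0.17 (SE; adjusted p = 0.00108). Its other probe sets differed by 0.30 (100550_f_at, also called) and -0.03 (162319_i_at). The probe set 100551_r_at was dim, with a mean log2 intensity of 6.20 and an SD between arrays of a strain of 0.86. With 32 added to each value before log2, its difference was 0.57. Sdhb stayed at 0.585 or more in the other settings, so the rank of Cox6c depended on how low values were handled.

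Atp5l, a membrane subunit of complex V, was higher in series A by 0.59 (93014_at, adjusted p = 0.00419), while its probe set 99678_f_at differed by -0.06. Atp5d (162343_f_at) was higher in series A by 0.56 (adjusted p = 0.0332), a call that ended without replicate 2 of BXD21 (0.0851) and with the Gapdh ratio as a covariate (0.0637), among others. Ndufb2 was higher in series A by 0.43 with 95131_f_at (adjusted p = 0.00203), but 95132_r_at differed by -0.42. Uqcrb, a small subunit of complex III, was the member that was lower in series A, with 9.46 ± 0.33 in series A and 9.88 ± 0.24 in series B (SD), a difference of -0.42 ± 0.12 (SE; adjusted p = 0.0139). That call ended without replicate 1 of BXD28 (0.0520). The log2 ratio of the Gapdh control probe sets had a median of 3.54 over the arrays of series A and 3.48 over those of series B.

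**Figure D5:**
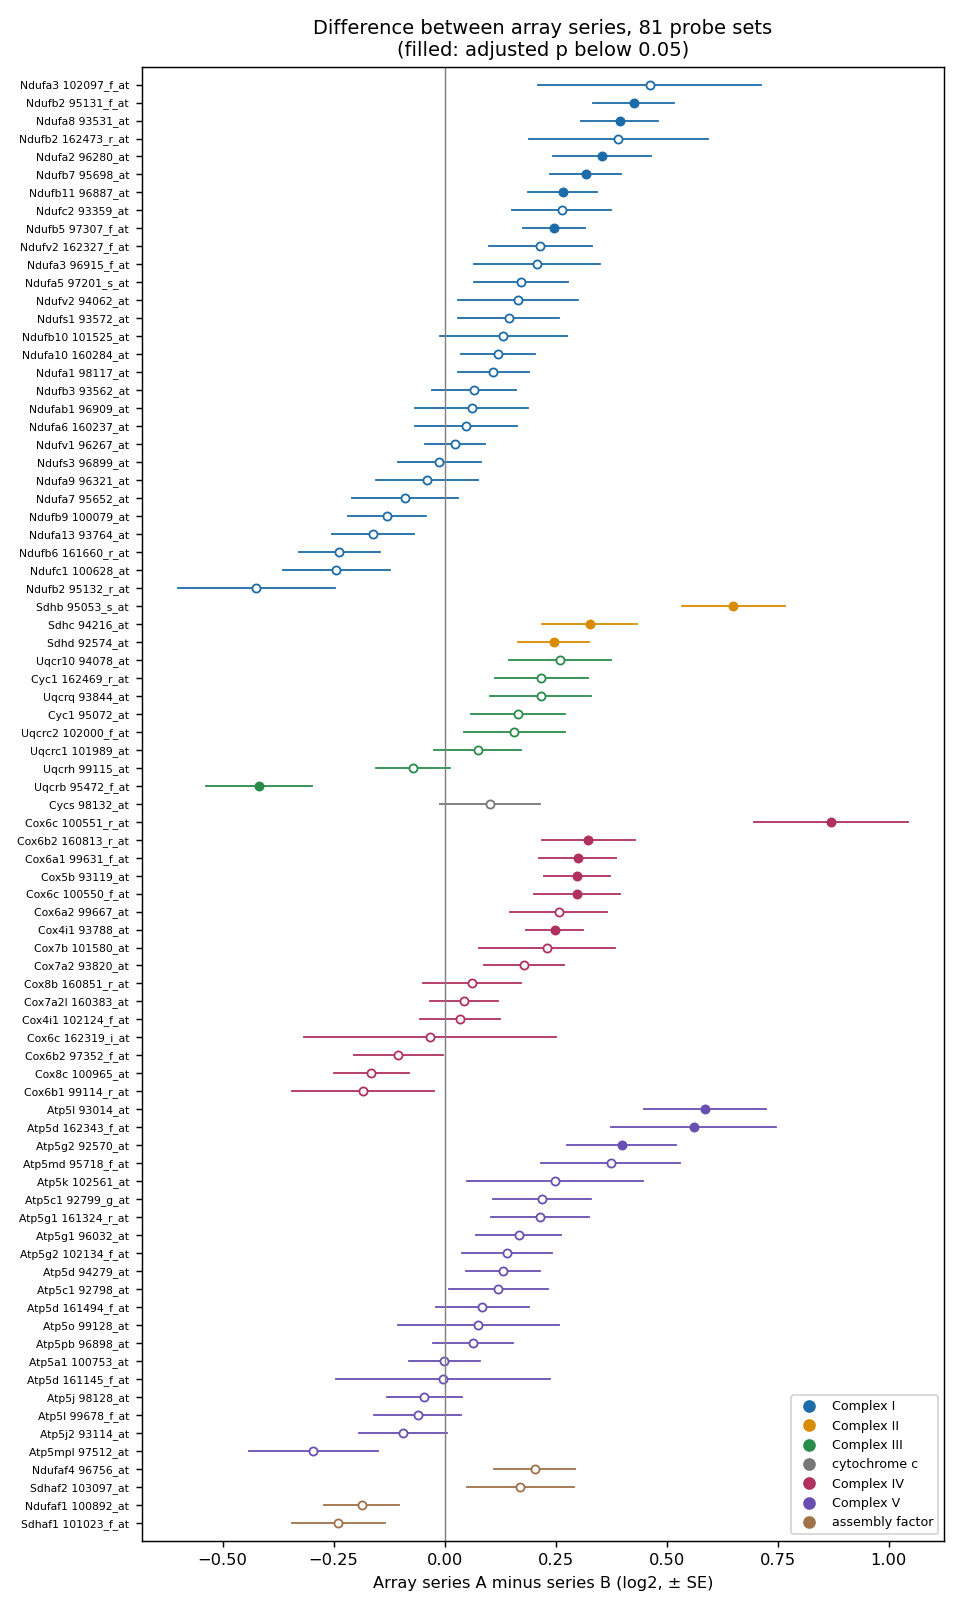
Difference of series A minus series B (x axis, log2, with SE bars) for each of the 81 probe sets (y axis), grouped by complex and filled where the adjusted p was below 0.05. The 19 filled points are 18 to the right of 0 and Uqcrb to the left, and probe sets of Ndufb2, Cox6c and Atp5l lie on both sides.

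Genes that serve the same pathway without being members were counted in the same strain test, beside the 2.80% of all probe sets called. None of 10 probe sets for other assembly factors passed, and neither did any of 17 for regulators of mitochondrial biogenesis such as Nrf1 and Tfam, of 21 for the tricarboxylic acid cycle and of 19 for glycolysis. Their smallest adjusted p were 0.367, 0.211, 0.241 and 0.184. Of 30 for mitochondrial carriers and import, 1 passed: Nnt, the proton-translocating transhydrogenase that is deleted in part in the C57BL/6J substrain. Nnt lay at the floor of 4 in BXD38 and averaged 7.50 in BXD8 (adjusted p = 0.0284). Over strain means, the other assembly factors had r = 0.656 with the members, carriers and import genes 0.648, glycolysis 0.384, the tricarboxylic acid cycle 0.308 and the biogenesis regulators -0.232.

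Markers of cell types were counted likewise, as cell makeup could differ between strains. Past the strain effect were 3 of 11 probe sets for stem and progenitor markers (Tie1, Flt3, Procr), 2 of 7 for erythroid cells, 5 of 16 for neutrophils and monocytes, 5 of 17 for B cells, 1 of 4 for megakaryocytes, 0 of 8 for T and NK cells and 0 of 5 for mast cells, basophils and eosinophils. Summed intensities of the neutrophil and monocyte markers lay between 8116 and 18697 in series A and between 7885 and 15611 in series B. Those of the erythroid markers lay between 3072 and 8234 in series A and between 3381 and 10352 in series B. Over strain means, the mean of each marker list had an r between -0.401 (mast cells, basophils and eosinophils) and 0.207 (stem and progenitor markers) with the members. Over the 22 differences between the arrays of a strain, r was higher for some lists, at 0.579 for stem and progenitor markers, 0.420 for neutrophil and monocyte markers and 0.321 for erythroid markers, and -0.286 for mast cells, basophils and eosinophils. The part of cell makeup in the deviations was not tested.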

How the data were processed

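RNA of Lin-Sca-1+c-kit+ cells from 22 strains was measured on 44 arrays. The deposited table holds intensities on a linear scale for 12488 probe sets, which the authors had scaled, as the 2% trimmed mean lay between 200.071 and 200.092 on every array. The summarising software is not given in the sources used here. Scanner parameter files were not used. No arrays held identical values.

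Values were floored at 16 before log2. As array medians spanned 0.273, quantile normalization followed. After removal of 66 control probe sets, those with mean log2 under 6 were left out. Gene symbols are those of the platform table, and all 81 members matched the RefSeq gene table of GRCm38.p6.

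Tests used limma 3.58.1 in R 4.3.3, fitted on all 7452 probe sets. The fit on strains had 1 coefficient per strain (22 residual and 4.371 prior degrees of freedom), and the array series were fitted apart on the strain means. The tests were an F test over 20 contrasts within series, each strain against the rest of its series, and series A against B. Each was Benjamini-Hochberg adjusted over all probe sets (within a strain for the second), two-sided, with 0.05 as threshold, and was tested on simulated data. Alternatives changed the scaling, floor, filter, prior and covariate, left out arrays or strains, or took each series alone.

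Members, lists and tests were chosen with earlier results of these data known. Genes named were those past a test, the 3 smallest strain p of each complex, those with several probe sets, isoform families, and the highest and lowest r within a complex. Genes were placed in complexes by the start of their symbol, Cox7a2l in complex IV among them, and Ndufaf and Sdhaf genes are shown apart. Series A and B are the 2 runs of numbers in the array labels.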

Additional observations from a re-analysis of the deposited data

How the results depend on the processing

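The strain test called 0 members in 12 of 14 alternatives that left no single array out. It called 1 without BXD40 and BXD42 (Atp5mpl, adjusted p = 0.0195) and 2 where array series was not modelled (Cox6c by 100550_f_at, 0.0307, and Atp5mpl, 0.0404). Leaving out single arrays gave 0 to 1, with Atp5mpl called without BXD31 replicate 2 (0.0487), BXD42 replicate 1 (0.0178) or BXD42 replicate 2 (0.0347). Over all probe sets the count of 209 became 487 with series not modelled, 54 in series A alone, and 133 without BXD2, BXD6 and BXD34. Members called in a strain against the rest numbered 2 to 4 under 9 other settings and 2 to 6 without single arrays, with 6 without BXD33 replicate 2 or BXD16 replicate 1. Over all probe sets that count was 722, and it was 392 without BXD2, BXD6 and BXD34 and 1198 without BXD16 replicate 1. The 3 member calls each ended without an array of the called strain, as reported. Members higher in series A numbered 12 to 18 (662 to 1203 over all probe sets), and 15 to 19 without single arrays (687 to 869). Members lower in series A numbered 2 on the values as deposited, without BXD40 and BXD42 and with the Gapdh covariate, and 0 to 3 without single arrays (0 without BXD28 replicate 1, 3 without BXD9 replicate 1). Over all probe sets, 603 to 1044 were lower, and 664 to 859 without single arrays. The call of Atp5d between series ended in 8 settings, with adjusted p from 0.0506 to 0.0851. The median pairwise r over strain means stayed between 0.0879 and 0.137, the median intraclass correlation between 0.0909 and 0.0972, and the deviation of BXD11 between -0.161 and -0.134. No result changed direction in the settings run, and the cause of these changes was not tested. No paired analysis was possible because the labels carry no replicate numbers that tie arrays of different strains together.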
